A study of Mus musculus with 16 samples.

Results

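The comparison set 4 mice killed 1 h after a single injection of formoterol against 4 mice killed 1 h after saline, 8 of the 16 arrays of the series, chosen by their treatment and time labels alone. All mice were male C57BL/10 ScSn wild type, 6 to 7 weeks old. Formoterol mice received 100 µg/kg intraperitoneally in 0.2 mL saline, and saline mice received saline alone. The remaining 8 arrays hold 4 formoterol and 4 saline mice at 4 h, which have saline mice of their own. Each array measured total RNA of the whole tibialis anterior, a fast muscle of the lower leg, from 1 mouse.

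Formoterol is a long-acting agonist of the β2-adrenoceptor, the main β-adrenoceptor of skeletal muscle. The receptor couples to the stimulatory G protein and adenylyl cyclase, the cAMP formed releases protein kinase A, and the kinase phosphorylates CREB, which binds cAMP response elements in promoters. Immediate-early genes, many of them transcription factors, need no new protein to be transcribed and are the first to respond. Blood vessels, fat and the heart carry β-adrenoceptors too.

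The arrays of both groups overlapped in brightness. The median intensity of the 7596 kept probes was 444.8 to 537.2 on formoterol arrays and 450.6 to 641.8 on saline arrays (exact two-sided permutation test, p = 0.286, n = 4 each, where 0.0286 is the smallest p possible). Formoterol arrays detected 5584 to 6649 probes and saline arrays 5734 to 7150 (exact permutation test, p = 0.286). Replicates 1 and 2 of both groups lay on slide 2 and replicates 3 and 4 on slide 3. Across kept probes, saline replicate 3 had a mean r of 0.9831 with the formoterol arrays and 0.9827 with the other saline arrays, while each of the other 7 arrays correlated more with its own group. The adult fast fibre markers Myh1, Casq1 and Actn3 were the measured ones of 13, and each was detected on all 8 arrays.

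At 1 h, formoterol raised 138 of 7596 probes (1.82%) and lowered 70 (0.922%), 208 in all (2.74%), at an adjusted p under 0.05 in a limma fit of the 4 group means over all 16 arrays. Values are given as the deposited ratio, in which 1 is the median of the kept probes on an array, and changes as log2 of formoterol over saline with the standard error (SE). The rises were larger than the falls. At the fold threshold of the study's methods (log2 0.89), 43 probes rose and 5 fell (48 in all, 0.632%), and 36 rises passed 2-fold and 4 passed 4-fold. The median change was log2 0.62 among the 138 rises and -0.47 among the 70 falls. In 129 of the 138 rises and 59 of the 70 falls the groups were fully separate, as they were in 8.40% of all probes, and 45 of the 48 changes past that threshold had no overlap. Without saline replicate 3 the counts were 165 higher, 100 lower and 64 past the fold threshold, while 42 were lower without formoterol replicate 1 and 32 without saline replicate 1 or without saline replicate 2.

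Names could be given to 90 of the 208 called probes, 68 higher for 63 genes and 22 lower for 21 genes, and 118 called probes have no name here. Since no gene names come with the probes, a name was read from a gene number or accession in the probe ID, which is an inference. Of the 90, 33 are named only because their group means match, at 1 h and 4 h, the pair of fold changes printed for a gene with the study. These are called table probes and marked with an asterisk in the plots. A large change was a condition of that naming, so the change of a table probe is a description of that gene and no independent support. Of the 24 largest rises with a name 13 are table probes, and of the 12 largest falls 2 are.

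**Figure D1:**
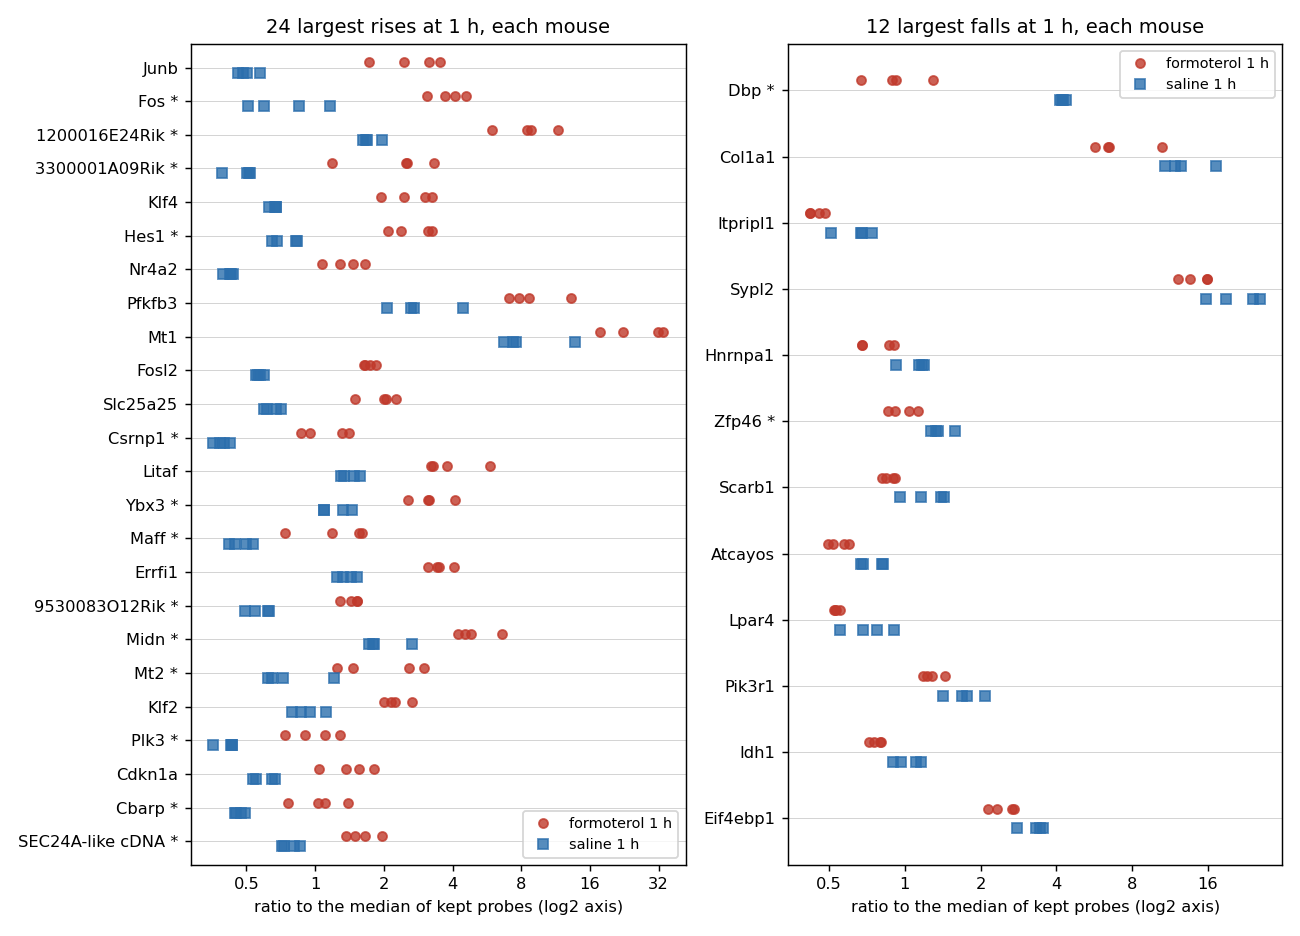
Deposited ratio of each mouse (log2 axis) for the 24 largest named rises (left) and 12 largest named falls (right) at 1 h, with red circles for the 4 formoterol mice, blue squares for the 4 saline mice and an asterisk for table probes. The 24 rises show no overlap between the groups, while among the falls Sypl2, Lpar4 and Pik3r1 do overlap.

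The largest named rise was that of Junb, a component of the AP-1 transcription factor. Junb read 3.52, 2.44, 3.17 and 1.73 in formoterol mice 1 to 4, against 0.483, 0.574, 0.505 and 0.461 in saline mice 1 to 4. No saline array detected it, so the rise is at least 4.16-fold, taking for each dim array the higher of its lowest detected ratio and the probe's own (log2 2.38, SE 0.18, adjusted p = 2.01e-07). Its partner Fosl2 (Fra-2), which dimerizes with Jun proteins, read 1.63, 1.741, 1.847 and 1.65 in formoterol mice and 0.597, 0.552, 0.573 and 0.563 in saline mice. The 4 formoterol mice lay close together and no saline array detected the probe, giving a rise of at least 2.72-fold (log2 1.59, SE 0.09, adjusted p = 1.37e-08). Fos itself, a table probe, read 3.1, 3.69, 4.59 and 4.11 in formoterol mice and 0.851, 0.599, 1.16 and 0.51 in saline mice (log2 2.37, SE 0.27, adjusted p = 2.33e-05). The lowest formoterol mouse stood well above saline replicate 3, the highest saline mouse.

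Maff, a small Maf protein without a transactivation domain and a table probe, read 1.61, 1.19, 1.55 and 0.741 in formoterol mice and 0.499, 0.535, 0.419 and 0.446 in saline mice, at least 1.94-fold (log2 1.37, SE 0.19, adjusted p = 0.000248). Formoterol replicate 4 was the lowest of its group for Maff and also for Junb. Csrnp1, a nuclear protein induced by growth signals and a table probe, read 1.31, 0.867, 1.41 and 0.949 in formoterol mice and 0.358, 0.398, 0.425 and 0.384 in saline mice, at least 1.76-fold (log2 1.51, SE 0.17, adjusted p = 2.33e-05). Mafg (log2 -0.19) and Zfp36l1 (log2 0.02), an RNA decay factor, were not called. Of the 24 genes of the list of AP-1 and immediate-early factors 4 have a probe named by its ID. They comprise 2 called higher and 2 not called, with a median of log2 0.80, or 0.73 with undetected groups at their bound, against -0.00 over all kept probes. Over all 2388 genes named by the probe ID, from which every list is drawn, 32 were called higher and 18 lower. At that share a list of few genes would hold few calls or none. Some called genes stand in several lists.

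Of 5 measured Krüppel-like factors, zinc finger proteins that bind GC-rich promoters, 2 rose (32 of 2388 over all genes named by their ID). Klf4 read 3.24, 2.44, 3.04 and 1.95 in formoterol mice against 0.665, 0.628, 0.671 and 0.671 in saline mice (log2 1.99, SE 0.15, adjusted p = 2.01e-07). The saline mice were nearly identical, and the second Klf4 probe, which no saline array detected, rose as well (log2 0.99, SE 0.11, adjusted p = 2.75e-05). Klf2, best known as a flow-responsive factor of endothelium, read 2, 2.14, 2.23 and 2.66 in formoterol mice and 0.945, 1.11, 0.868 and 0.79 in saline mice (log2 1.29, SE 0.12, adjusted p = 4.79e-06). Klf2 had its highest value in formoterol replicate 4, the mouse that was lowest for Junb, Klf4 and Maff. Klf3, Klf6 and Klf7 had changes of log2 0.35, 0.24 and 0.33 and were not called. The list's median was log2 0.35.

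Nr4a2 (Nurr1), an orphan nuclear receptor that is a classic CREB target, read 1.66, 1.46, 1.28 and 1.07 in formoterol mice and 0.428, 0.437, 0.425 and 0.395 in saline mice. It was detected on all 4 formoterol arrays and on no saline array, a rise of at least 2.14-fold (log2 1.68, SE 0.16, adjusted p = 4.79e-06). Its second probe, also undetected in saline mice, rose too (log2 1.22, SE 0.14, adjusted p = 3.48e-05). Hes1, a repressor downstream of Notch and a table probe, read 2.37, 3.25, 3.11 and 2.09 in formoterol mice and 0.648, 0.678, 0.832 and 0.828 in saline mice (log2 1.84, SE 0.13, adjusted p = 1.80e-07). Ybx3, a cold-shock domain protein that binds RNA, read 4.12, 3.12, 3.15 and 2.54 in formoterol mice and 1.09, 1.09, 1.45 and 1.33 in saline mice as a table probe (log2 1.37, SE 0.14, adjusted p = 8.42e-06).

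Because these genes rose together, the 250 bases before their start sites are of interest for the cAMP response element, TGACGTCA, and its core element, TGACG, which the whole element contains. Both strands were searched in 300 bases (250 before and 50 after the start) of RefSeq promoters of GRCm38.p6. Of the 24 largest named rises 19 match a promoter, with 31 promoters between them. The core element occurred in 19 of the 31 promoters (61.3%), against 20.8% of 32851 promoters of all genes, and the whole element in 3 of 31 (9.68%), against 1.79%. The AP-1 site TGACTCA was in 3 of 31 (9.68%), against 5.20%, and the E-box CACGTG in 4 (12.9%), against 7.15%. By gene, the core element was in 14 of 19 (73.7%), against 23% of 27025 genes. The whole element was in 3 of 19 (15.8%), against 2.03%. The AP-1 site was in 3 of 19 (15.8%), against 5.95%, and the E-box in 4 (21.1%), against 8.09%. Base composition was not matched. Of the 12 largest falls 9 match, and 3 of their 13 promoters (23.1%) held the core element and 0 the whole one. A match is a run of letters and no evidence of binding, and no test was made, since the genes were chosen by their rise.
The promoters of the 4 transcription factors with the largest rises that match, and the 3 promoters with the whole element, are printed 5′ to 3′ over the 250 bases before the start, with core or whole elements in capitals.
Junb, chr8:84978749-84978998, - strand: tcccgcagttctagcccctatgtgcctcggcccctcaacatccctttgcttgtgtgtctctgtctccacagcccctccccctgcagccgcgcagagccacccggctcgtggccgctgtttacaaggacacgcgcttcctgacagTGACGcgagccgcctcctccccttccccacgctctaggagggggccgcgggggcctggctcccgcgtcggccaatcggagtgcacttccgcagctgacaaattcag
Fos, chr12:85473640-85473889, + strand: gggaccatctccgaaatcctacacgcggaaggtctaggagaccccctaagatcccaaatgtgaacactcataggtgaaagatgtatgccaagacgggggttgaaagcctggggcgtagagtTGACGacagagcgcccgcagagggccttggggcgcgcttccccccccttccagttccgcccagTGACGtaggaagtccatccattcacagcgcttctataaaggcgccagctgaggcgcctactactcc
Klf4, chr4:55532476-55532725, - strand: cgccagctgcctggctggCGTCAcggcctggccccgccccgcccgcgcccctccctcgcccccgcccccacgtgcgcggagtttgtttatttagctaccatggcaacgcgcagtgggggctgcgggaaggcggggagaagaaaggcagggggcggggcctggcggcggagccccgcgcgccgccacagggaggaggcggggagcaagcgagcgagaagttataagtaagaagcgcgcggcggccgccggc
Nr4a2, chr2:57124004-57124253, - strand: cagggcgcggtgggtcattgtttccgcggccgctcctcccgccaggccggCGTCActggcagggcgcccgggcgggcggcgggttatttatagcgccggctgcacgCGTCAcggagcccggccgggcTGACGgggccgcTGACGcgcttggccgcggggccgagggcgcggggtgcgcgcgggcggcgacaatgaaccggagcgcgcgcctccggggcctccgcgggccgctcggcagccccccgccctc
Maff, chr15:79347270-79347519, + strand: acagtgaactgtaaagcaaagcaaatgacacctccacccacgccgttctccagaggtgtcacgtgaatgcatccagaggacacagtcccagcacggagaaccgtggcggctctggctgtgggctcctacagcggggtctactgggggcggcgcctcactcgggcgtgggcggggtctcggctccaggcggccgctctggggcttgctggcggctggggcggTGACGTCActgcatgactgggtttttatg
Errfi1, chr4:150854820-150855069, + strand: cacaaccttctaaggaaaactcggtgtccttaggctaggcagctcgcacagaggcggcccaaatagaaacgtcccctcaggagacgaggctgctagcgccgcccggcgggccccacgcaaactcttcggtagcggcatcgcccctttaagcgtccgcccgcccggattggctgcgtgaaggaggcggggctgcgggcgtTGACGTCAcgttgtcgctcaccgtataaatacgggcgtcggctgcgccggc
Slc25a25, chr2:32424067-32424316, - strand: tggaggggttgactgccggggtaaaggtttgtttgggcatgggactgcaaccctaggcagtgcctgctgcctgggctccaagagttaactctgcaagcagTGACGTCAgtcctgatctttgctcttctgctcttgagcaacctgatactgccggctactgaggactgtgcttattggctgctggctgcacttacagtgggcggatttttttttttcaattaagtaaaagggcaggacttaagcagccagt
Counted from the start site, the nearest core element began at -66 in Fos, -106 in Junb, -232 in Klf4 and -111 in Nr4a2, which holds 4 of them. The whole element began at -29 in the Maff promoter, -51 in that of Errfi1 and -150 in that of Slc25a25.

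Pde4d, Crem and Cebpb, members of the list of CREB and cAMP targets, were called higher at 1 h. Pde4d, a phosphodiesterase that breaks down cAMP, read 1.55, 1.76, 1.79 and 1.61 in formoterol mice against 0.778, 0.856, 0.866 and 0.768 in saline mice, where no 2 mice of different groups came close (log2 1.04, SE 0.09, adjusted p = 1.79e-06). Crem, whose short form ICER represses cAMP-driven transcription, read 0.826, 0.668, 0.72 and 0.679 in formoterol mice and 0.445, 0.443, 0.449 and 0.414 in saline mice. This table probe was detected on 2 formoterol arrays and no saline array, at least 1.14-fold (log2 0.72, SE 0.10, adjusted p = 0.000156). Cebpb, a basic leucine zipper factor of metabolism and inflammation, read 9.49, 9.16, 9.02 and 5.95 in formoterol mice and 5.18, 6.28, 3.72 and 4.61 in saline mice, with formoterol replicate 4 below saline replicate 2 (log2 0.77, SE 0.17, adjusted p = 0.0142). Its call was lost without formoterol replicate 1 or without formoterol replicate 2.

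Of the 31 genes in the list of CREB and cAMP targets 6 have a probe named by its ID, and 4 of the 6 rose (Junb, Nr4a2, Pde4d and Cebpb). Of all 2388 genes so named 32 were called higher. Cited2 (log2 -0.09), a transcriptional coregulator, and Id3 (log2 0.22), an inhibitor of basic helix-loop-helix factors, were not called. Cited2 was detected on no formoterol array and on 2 saline arrays. The median of the list was log2 0.90, and the same with 3 members at their bound. Of the 52 genes for receptors, G proteins, cyclases, anchors and subunits of protein kinase A 8 were measured and 0 were called by limma (1 at an unadjusted p under 0.05), with a median of log2 -0.02 and a range of -0.14 to 0.36. Gnas, which encodes the stimulatory G protein, had a change of log2 -0.14 (adjusted p = 0.499). No kept probe is named for the β2-adrenoceptor, which was not analysed here.

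Single inhibitors of growth signals and of the cell cycle rose. Errfi1 (Mig6), which inhibits the EGF receptor kinase, read 3.48, 3.13, 4.06 and 3.42 in formoterol mice and 1.25, 1.43, 1.33 and 1.53 in saline mice (log2 1.35, SE 0.13, adjusted p = 4.79e-06). Cdkn1a (p21), an inhibitor of cyclin-dependent kinases, read 1.55, 1.37, 1.81 and 1.04 in formoterol mice and 0.548, 0.645, 0.532 and 0.667 in saline mice (log2 1.25, SE 0.14, adjusted p = 2.17e-05), and its second probe rose as well (log2 1.19, SE 0.15, adjusted p = 5.84e-05). Both genes had all 4 formoterol mice above all 4 saline mice. Cdkn1a was the 1 called gene of 6 measured for cell cycle arrest and p53 targets, a list with a median of log2 0.01. Plk3, a stress-responsive kinase and a table probe, read 0.902, 1.1, 1.28 and 0.735 in formoterol mice and 0.433, 0.427, 0.433 and 0.358 in saline mice, at least 1.56-fold (log2 1.26, SE 0.16, adjusted p = 6.24e-05). Dusp8, a phosphatase of stress kinases, had log2 0.93 on slide 2 and 0.08 on slide 3 and was not called (adjusted p = 0.161), so that 1 of the 6 measured feedback inhibitors rose.

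Litaf, a small protein of late endosomes first found as induced by endotoxin, read 5.84, 3.79, 3.29 and 3.21 in formoterol mice and 1.57, 1.34, 1.48 and 1.3 in saline mice (log2 1.46, SE 0.15, adjusted p = 8.42e-06). Formoterol replicate 1 was the highest. It was the 1 called gene among 8 measured cytokines, chemokines and response genes. Midn, a nuclear protein that targets unstable proteins to the proteasome and a table probe, read 6.6, 4.82, 4.54 and 4.24 in formoterol mice and 1.8, 1.72, 2.67 and 1.81 in saline mice (log2 1.34, SE 0.14, adjusted p = 7.82e-06), with saline replicate 3 the highest of its group. Cbarp, which restrains voltage-gated calcium channels, read 1.39, 1.03, 1.1 and 0.763 in formoterol mice and 0.491, 0.452, 0.475 and 0.447 in saline mice as a table probe, at least 1.66-fold (log2 1.17, SE 0.16, adjusted p = 0.000250).

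Among metabolic genes few were called. Pfkfb3, which makes the fructose 2,6-bisphosphate that drives glycolysis, read 13.2, 7.8, 8.62 and 7.07 in formoterol mice and 2.07, 2.62, 4.43 and 2.71 in saline mice (log2 1.65, SE 0.25, adjusted p = 0.000603). Formoterol replicate 1 was the highest of the 8 mice and saline replicate 3 the highest saline mouse. Hk2, the hexokinase that traps glucose in muscle and a table probe, read 24.9, 24, 18.4 and 17.4 in formoterol mice and 11.5, 13.1, 16.5 and 14.1 in saline mice (log2 0.61, SE 0.12, adjusted p = 0.00670). Its rise was log2 0.99 on slide 2 and 0.23 on slide 3. Aldoa (log2 -0.04) and Gapdh (log2 -0.01), abundant glycolytic enzymes, were not called, and Pfkfb3 was the 1 called gene of 17 measured for glycolysis and glycogen, whose median was log2 -0.01.

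Slc25a25, a mitochondrial carrier that exchanges ATP-magnesium for phosphate, read 2.05, 2, 2.27 and 1.49 in formoterol mice and 0.675, 0.612, 0.598 and 0.708 in saline mice (log2 1.58, SE 0.22, adjusted p = 0.000239). It was the 1 gene called among 5 measured mitochondrial regulators and carriers. Ppargc1a (PGC-1α), the coactivator of mitochondrial biogenesis, read 1.84, 1.57, 1.04 and 2.96 in formoterol mice and 1.08, 1, 1.29 and 1.17 in saline mice. Formoterol replicate 3 fell inside the saline range and the gene was not called (log2 0.62, SE 0.23, adjusted p = 0.202). Ucp3, a mitochondrial uncoupling protein, read 1.05, 1.05, 1.22 and 1.15 in formoterol mice and 1.03, 1.02, 0.539 and 0.673 in saline mice. The groups did not overlap, yet saline replicates 1 and 2 on slide 2 nearly reached the formoterol mice and the gene was not called (log2 0.50, SE 0.16, adjusted p = 0.121).

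Pdk4 and Lpin1, fuel genes that the study also followed by PCR, did not pass the test at this time. Pdk4, which shuts pyruvate out of oxidation, read 19.8, 23.3, 19.9 and 21.9 in formoterol mice and 21.1, 24.3, 8.35 and 14.1 in saline mice, lowest in saline replicate 3 (log2 0.43, SE 0.22, adjusted p = 0.403, not called). Lpin1, a phosphatidate phosphatase and coactivator of fat oxidation, was not called (log2 0.22, adjusted p = 0.408). The probes of Ppargc1a, Ucp3, Pdk4 and Lpin1 are table probes. Among 15 measured genes of fatty acid handling 0 were called by limma (3 at an unadjusted p under 0.05), with a median of log2 -0.01. The highest change in that list was that of Angptl4, a secreted lipase inhibitor (log2 0.61, adjusted p = 0.294).

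Of 11 measured genes of oxidative stress and metal response 2 rose, Mt1 and Srxn1, against 32 of all 2388 genes named by their ID. The median of the list was log2 0.08. Mt1, a metallothionein that binds zinc, read 33.5, 22.4, 31.8 and 17.8 in formoterol mice and 7.35, 6.73, 13.8 and 7.56 in saline mice, where saline replicate 3 came nearest to the lowest formoterol mouse (log2 1.59, SE 0.22, adjusted p = 0.000193). Mt2, its neighbour and a table probe, read 2.99, 1.46, 2.58 and 1.25 in formoterol mice and 0.721, 0.621, 1.21 and 0.645 in saline mice, where saline replicate 3 was close to formoterol replicate 4 (log2 1.34, SE 0.25, adjusted p = 0.00466). Srxn1, which repairs overoxidized peroxiredoxins, read 1.4, 1.11, 1.13 and 1.29 in formoterol mice and 0.581, 0.66, 1.07 and 0.708 in saline mice (log2 0.74, SE 0.16, adjusted p = 0.0147). Its 2 other probes were not called (log2 0.31 and 0.45), and the call was lost without formoterol replicate 1 and without saline replicate 1 or 2.

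Hsp90aa1, the inducible form of a cytosolic chaperone, read 1.35, 1.07, 0.97 and 0.983 in formoterol mice and 0.787, 0.737, 0.839 and 0.734 in saline mice (log2 0.49, SE 0.12, adjusted p = 0.0409). It was the 1 called gene of 9 measured for heat shock and unfolded protein, beside Hspa8 (log2 0.25) and Hspb1 (log2 0.36), and its call was lost without any 1 of formoterol replicates 1 and 2 and saline replicates 1, 2 and 4, or without formoterol replicate 2 or 4 or saline replicate 3 of 4 h. Among 13 measured genes of ubiquitin and autophagy that are reported here 0 were called by limma (3 at an unadjusted p under 0.05), with a median of log2 0.01, and Ubb, a polyubiquitin gene, did not pass the test (log2 0.04, adjusted p = 0.897).

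Of 25 genes known as glucocorticoid and stress-hormone targets 9 were measured. Of these Mt1, Cdkn1a and Cebpb rose, Pik3r1 fell and 5 were not called, among them Sgk1 (log2 0.22) and Foxo1 (log2 -0.04). Foxo1 was detected on 1 formoterol array and no saline array. Among all 2388 genes named by their ID 32 were called higher and 18 lower. The median of the list was log2 0.22.

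In growth signalling 2 table probes rose. Id1, a BMP-responsive inhibitor of differentiation factors and a table probe, read 1.3, 1.06, 1.01 and 1.43 in formoterol mice and 0.696, 0.732, 0.645 and 0.595 in saline mice (log2 0.84, SE 0.12, adjusted p = 0.000288). Smad3, which carries the myostatin and TGF-β signal and is a table probe, read 6.27, 7.05, 7.3 and 7.88 in formoterol mice and 4.11, 4.24, 5.82 and 5.1 in saline mice (log2 0.57, SE 0.10, adjusted p = 0.00167). Both had no overlap between groups. The 8 measured genes named by their ID for myostatin, TGF-β and BMP signalling held 0 limma calls (2 at an unadjusted p under 0.05), with changes of log2 -0.18 to 0.22. Stat3 (log2 0.01, adjusted p = 0.988), the transcription factor downstream of cytokine receptors, and Foxo1 (log2 -0.04, adjusted p = 0.953), which drives atrophy genes, were not called at 1 h. The Foxo1 probe was detected at 1 h on 1 formoterol array and no saline array, so its change rests on dim values. Smad1, also followed by PCR in the study, has no kept probe with a name and was not analysed here.

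In the list of IGF, Akt, FoxO and mTOR signalling 2 of 12 measured genes fell (18 of 2388 over all genes named by their ID). Pik3r1, the regulatory subunit of phosphoinositide 3-kinase, read 1.23, 1.44, 1.28 and 1.18 in formoterol mice and 1.69, 2.09, 1.42 and 1.77 in saline mice, where formoterol replicate 2 passed saline replicate 3 (log2 -0.43, SE 0.11, adjusted p = 0.0344). Eif4ebp1, which holds back cap-dependent translation, read 2.67, 2.32, 2.71 and 2.15 in formoterol mice and 3.45, 3.33, 2.79 and 3.54 in saline mice (log2 -0.41, SE 0.10, adjusted p = 0.0360). Both calls were lost in a fit of the 8 arrays of 1 h alone. Igfbp5, an IGF-binding protein abundant in muscle, was not called (log2 -0.30, adjusted p = 0.403). Eif4ebp1 was also the 1 called gene of 20 measured for translation initiation, with a median of log2 -0.03.

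The largest fall was that of Dbp, a clock-controlled factor of the PAR leucine zipper family. Dbp, a table probe, read 0.674, 0.891, 1.3 and 0.928 in formoterol mice against 4.24, 4.21, 4.13 and 4.36 in saline mice, whose 4 values were nearly the same (log2 -2.20, SE 0.17, adjusted p = 3.92e-07). It fell on slide 2 (log2 -2.45) and slide 3 (log2 -1.95). Nfil3, a repressor that binds the same sites as Dbp and is also a table probe, read 4.66, 4.14, 4.01 and 4.5 in formoterol mice and 2.11, 2.38, 2.15 and 1.78 in saline mice (log2 1.04, SE 0.16, adjusted p = 0.000796). Dbp read lower and Nfil3 higher in all 4 formoterol mice than in any saline mouse. The 7 clock genes named by their ID held 0 limma calls at 1 h (3 at an unadjusted p under 0.05), with a median of log2 0.11, and included Rora (log2 -0.15) and Csnk1d (log2 0.06).

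Of 20 measured matrix genes 2 fell, Col1a1 and Dcn (18 of 2388 over all genes named by their ID). Col1a1, a chain of type I collagen, read 10.5, 5.68, 6.47 and 6.41 in formoterol mice and 12.5, 17.2, 11.8 and 10.8 in saline mice (log2 -0.87, SE 0.18, adjusted p = 0.00779). Formoterol replicate 1 nearly met saline replicate 4. Dcn (decorin), a proteoglycan that binds collagen, read 18.6, 17, 19.1 and 18.7 in formoterol mice and 20.9, 22.2, 22 and 23 in saline mice (log2 -0.26, SE 0.06, adjusted p = 0.0317), and its second probe fell too (log2 -0.39, SE 0.09, adjusted p = 0.0187). The Dcn call was lost under quantile normalization. Col1a2 (log2 -0.86, adjusted p = 0.107) and Col3a1 (log2 -0.61, adjusted p = 0.443) were not called. In this list 2 members had a change above 0, with a median of log2 -0.13, -0.13 on slide 2 and -0.21 on slide 3. The 5 measured fibroblast markers are all matrix genes of this list, with a median of log2 -0.61 and summed ratios of 28.6 to 36.4 in formoterol mice and 40.9 to 49.5 in saline mice. In whole muscle, fewer cells of a type and less RNA per cell cannot be told apart, and the number of fibroblasts was not tested.

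Other named falls were of single genes. Gucy1a1, a subunit of soluble guanylyl cyclase, the receptor of nitric oxide, read 1, 1.07, 1.1 and 1.03 in formoterol mice and 1.38, 1.44, 1.34 and 1.43 in saline mice (log2 -0.41, SE 0.07, adjusted p = 0.00198). Scarb1, the HDL receptor, read 0.845, 0.902, 0.918 and 0.816 in formoterol mice and 1.43, 1.39, 1.16 and 0.954 in saline mice (log2 -0.48, SE 0.11, adjusted p = 0.0166). Both fell without overlap. Idh1, the cytosolic isocitrate dehydrogenase, read 0.797, 0.722, 0.805 and 0.753 in formoterol mice and 1.11, 1.16, 0.901 and 0.971 in saline mice (log2 -0.42, SE 0.08, adjusted p = 0.00699). Sypl2 (mitsugumin 29), a membrane protein of the triad where muscle releases calcium, read 15.8, 13.6, 12.2 and 15.8 in formoterol mice and 24.1, 25.7, 18.8 and 15.7 in saline mice (log2 -0.53, SE 0.14, adjusted p = 0.0410). Sypl2 overlapped through saline replicate 4. Hnrnpa1, a splicing factor, read 0.908, 0.679, 0.864 and 0.68 in formoterol mice and 1.19, 0.926, 1.14 and 1.17 in saline mice (log2 -0.50, SE 0.12, adjusted p = 0.0319).

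The last of the 12 include dim probes. Itpripl1 (log2 -0.54, adjusted p = 0.00322), Lpar4, a receptor of lysophosphatidic acid (log2 -0.43, adjusted p = 0.0389), and Atcayos (log2 -0.45, adjusted p = 0.0136), a transcript named for the strand opposite Atcay, were detected on no formoterol array. Itpripl1 was detected on 2, Lpar4 on 3 and Atcayos on 4 saline arrays. For Lpar4 the fall is at least 1.07-fold and for Atcayos at least 1.10-fold. Zfp46, a zinc finger gene and a table probe, read 0.86, 0.919, 1.13 and 1.04 in formoterol mice and 1.27, 1.58, 1.33 and 1.36 in saline mice (log2 -0.49, SE 0.09, adjusted p = 0.00358). Of the falls named here, Lpar4, Sypl2, Pik3r1, Scarb1, Hnrnpa1, Eif4ebp1, Atcayos and Dcn each lost the call without at least 4 of the 1 h arrays taken 1 at a time. Dcn, Scarb1, Lpar4 and Sypl2, like Pik3r1 and Eif4ebp1, also lost it in a fit of the 8 arrays of 1 h alone.

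**Figure D2:**
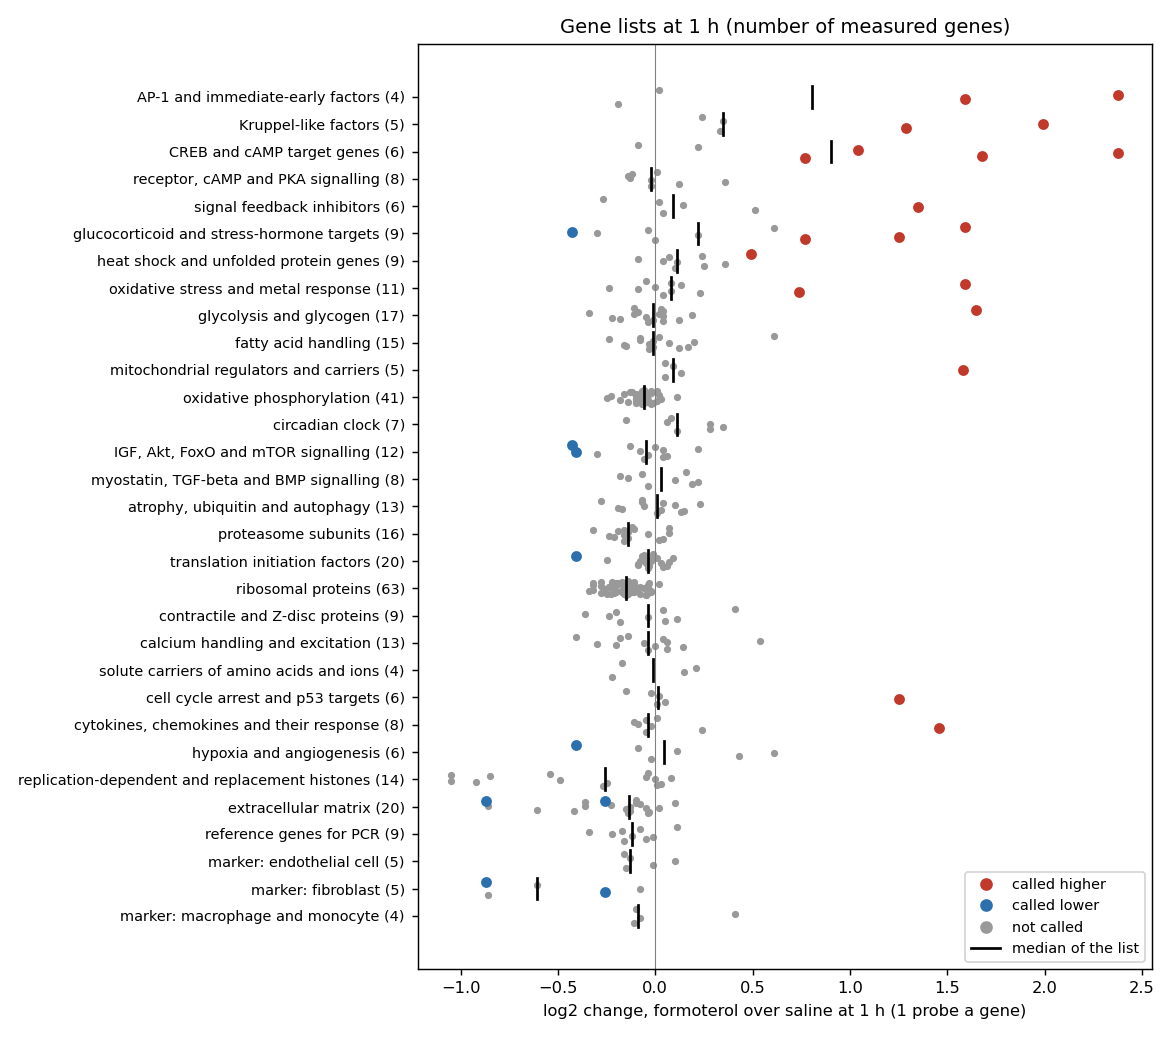
Log2 change of formoterol over saline at 1 h for each measured gene of the lists with at least 4 measured genes, with red and blue for called higher and lower, grey for not called and a black line for the median. The factor and cAMP target lists hold the largest rises, and the ribosomal and oxidative phosphorylation lists lie between -0.34 and 0.11.

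The lists of ribosomal proteins, oxidative phosphorylation, proteasome subunits and histones held no limma calls. At the share over all 2388 genes named by their ID (32 higher, 18 lower), few calls or none would fall in such lists. The 63 measured ribosomal protein genes had a median of log2 -0.15 with a range of -0.34 to 0.02, and 0 were called (12 at an unadjusted p under 0.05). Their median was log2 -0.28 on slide 2 and -0.03 on slide 3, the larger distance from 0 being on slide 2. The 41 measured genes of oxidative phosphorylation had a median of log2 -0.06, with -0.16 on slide 2 and 0.03 on slide 3, where the sign turned (0 at an unadjusted p under 0.05). The 16 measured proteasome genes had a median of log2 -0.14 with 0 calls (4 at an unadjusted p under 0.05), and -0.06 and -0.15 on slides 2 and 3. For 14 measured histone genes the median was log2 -0.26, the range -1.05 to 0.08, and 0 were called (6 at an unadjusted p under 0.05). Among 9 reported genes in use as PCR references 0 were called by limma (2 at an unadjusted p under 0.05), and Actb had a change of log2 -0.17 (adjusted p = 0.479). At an unadjusted p under 0.05, 1053 of all 7596 probes passed.

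Markers of other cells held few calls. Of 13 marker lists, the fibroblast list alone had called members (Col1a1 and Dcn). These lists had 1 to 5 measured genes each, against 32 called higher and 18 lower of all 2388 genes named by their ID. A marker list without a call thus says little about its cell type. The 3 measured globin genes, Hba-a1 (log2 0.17), Hbb-b1 (log2 0.11) and Hbb-b2 (log2 0.11), did not pass the test, and their summed ratio was 43.2 to 77.4 in formoterol mice and 27.2 to 74.4 in saline mice. Their median change was log2 -0.27 on slide 2 and 0.53 on slide 3, and Pdk4 and Ucp3 also had the higher change on slide 3 (log2 -0.08 and 0.95 for Pdk4, 0.03 and 0.97 for Ucp3). The part of blood in these values was not tested. The 5 endothelial markers summed to 6.15 to 7.81 in formoterol mice and 6.27 to 8.56 in saline mice, with Pecam1 at log2 -0.16. Klf2 and Klf4 are expressed in vessels as well as fibres, and which cells carried their rise was not tested. The macrophage gene Lyz2 had a change of log2 -0.08. The fast fibre markers Myh1 (log2 -0.36) and Casq1 (log2 -0.30) did not pass the test.

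The formoterol mice differed in the strength of the response. Over the 43 probes called higher and past the fold threshold, the median distance from the mean of saline mice was log2 1.53, 1.34, 1.47 and 1.10 in formoterol replicates 1 to 4, and -0.07, -0.05, 0.11 and -0.09 in saline replicates 1 to 4. As these probes were chosen by the same values, this only describes the mice. Formoterol replicate 4 was lowest for these rises and saline replicate 3 highest.

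Both slides gave every called probe the same direction, 138 of 138 rises and 70 of 70 falls, which the choice of these probes by the mean over both slides largely fixes. The change was larger on slide 2 for 35 of the 48 probes past the fold threshold, and the 43 rises had a median of log2 1.5 on slide 2 and 1.17 on slide 3. With slide 2 alone 368 probes were called higher and 342 lower, and with slide 3 alone 45 and 6, each with 2 mice a group. Among the called genes named in the text the gap between slides was widest for Pfkfb3 (log2 2.12 on slide 2, 1.17 on slide 3), Hk2 and Mt1 (1.96 and 1.22), and for Klf2 the larger change lay on slide 3 (1.01 and 1.56). With slide as a fixed block over all 16 arrays the counts were 157 higher and 99 lower.

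**Figure D3:**
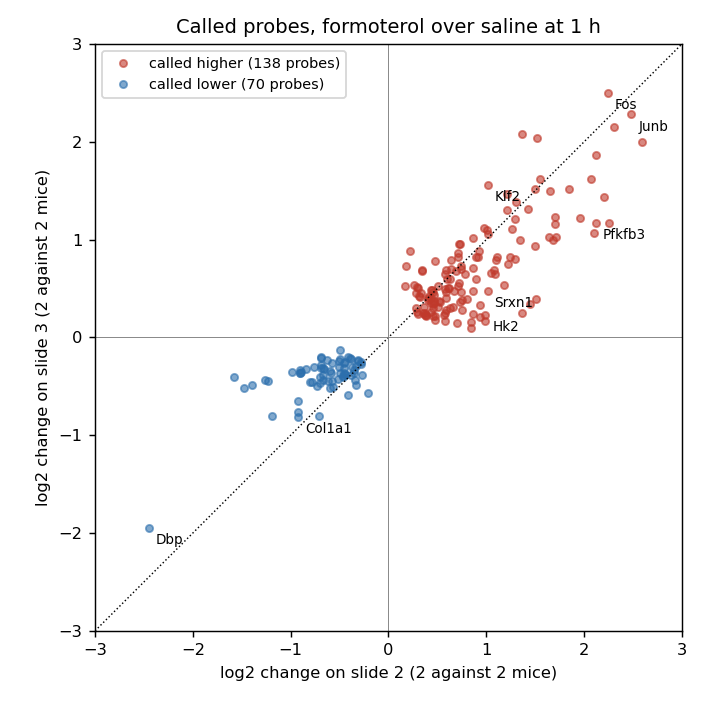
Log2 change of each of the 208 called probes on slide 2 (x axis) and slide 3 (y axis), with red for probes called higher, blue for probes called lower and a dotted line where both slides are equal. All points lie in the 2 quadrants of equal sign, and 97 of the 138 rises lie below the line.

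The response at 1 h was compared with that at 4 h, which rests on other mice of both treatments. Replicates 1 to 3 of both 4 h groups lay on slide 1, which held no 1 h mouse, and replicate 4 on slide 2. Slide 3 held 1 h mice alone. Time is thus largely confounded with slide. On each slide, formoterol and saline mice of the same time were equal in number. A shift common to all mice of a slide thus cancels in the difference of responses. A response that differs between slides cannot be told apart from one that differs between times. Of the 138 probes higher at 1 h, 91 were also called higher at 4 h (65.9% of the 1 h rises and 13.5% of the 675 rises at 4 h), and 1 was called lower. Of the 70 lower at 1 h, 38 were called lower at 4 h (54.3% of the 1 h falls and 7.08% of the 537 falls at 4 h), and 4 were called higher. At 4 h 16% of all probes were called. The difference of the responses itself was called for 256 probes (3.37%). Among the 138 rises it was larger at 1 h for 25 and smaller at 1 h for 25, and among the 70 falls it was larger at 1 h for 7 and smaller for 0.

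Among the genes of the text, 10 had a larger response at 1 h, among them several transcription factors. Hes1 rose at 1 h and had log2 0.02 at 4 h (difference 1.82, adjusted p = 2.10e-05). Errfi1 (difference 1.2, adjusted p = 0.00108), Klf2 (difference 1.18, adjusted p = 0.000826), Junb (difference 1.52, adjusted p = 0.00155), Fos (difference 1.88, adjusted p = 0.00795) and Fosl2 (difference 0.83, adjusted p = 0.00122) also had a larger response at 1 h. Of these, Junb and Fosl2 were still called higher at 4 h (log2 0.86, adjusted p = 0.00241 for Junb, log2 0.75, adjusted p = 1.69e-05 for Fosl2), while Hes1, Errfi1, Klf2 and Fos were not called there. Nr4a2 was higher at both times (log2 1.13, adjusted p = 8.78e-05 at 4 h), and its responses did not pass the test of a difference (adjusted p = 0.294).

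Other genes rose at 1 h and more at 4 h. Mt1 changed by log2 1.59 at 1 h and 3.61 at 4 h (difference -2.02, adjusted p = 0.000909), Srxn1 by 0.74 and 3.41 (difference -2.66, adjusted p = 8.12e-06), and Nfil3 by 1.04 and 2.41 (difference -1.37, adjusted p = 0.00183). Crem (difference -1.09, adjusted p = 0.000161) and Pde4d (difference -0.88, adjusted p = 0.000792) had the smaller response at 1 h as well. Dbp was lower at both times (log2 -1.85, adjusted p = 6.91e-07 at 4 h), and the test of a difference was not passed (adjusted p = 0.605). Ppargc1a (log2 2.39, adjusted p = 6.91e-07), Stat3 (log2 0.82, adjusted p = 5.02e-06), Foxo1 (log2 1.2, adjusted p = 1.03e-05) and Lpin1 (log2 1.02, adjusted p = 4.11e-06), none of them called at 1 h, were higher at 4 h, and for each of the 4 the difference of responses was called. So was that of Eif4ebp1, lower at 1 h and at log2 0.20 at 4 h. Of 15 genes reported here that the study followed by PCR on other mice, 14 have a kept probe with a name. At 1 h 8 were called, against 2.74% of all kept probes. The study chose these genes because the same arrays showed them changed, so the count is no support. Among the called, Id1, Smad3, Hk2, Nfil3, Dbp and Crem are table probes.

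**Figure D4:**
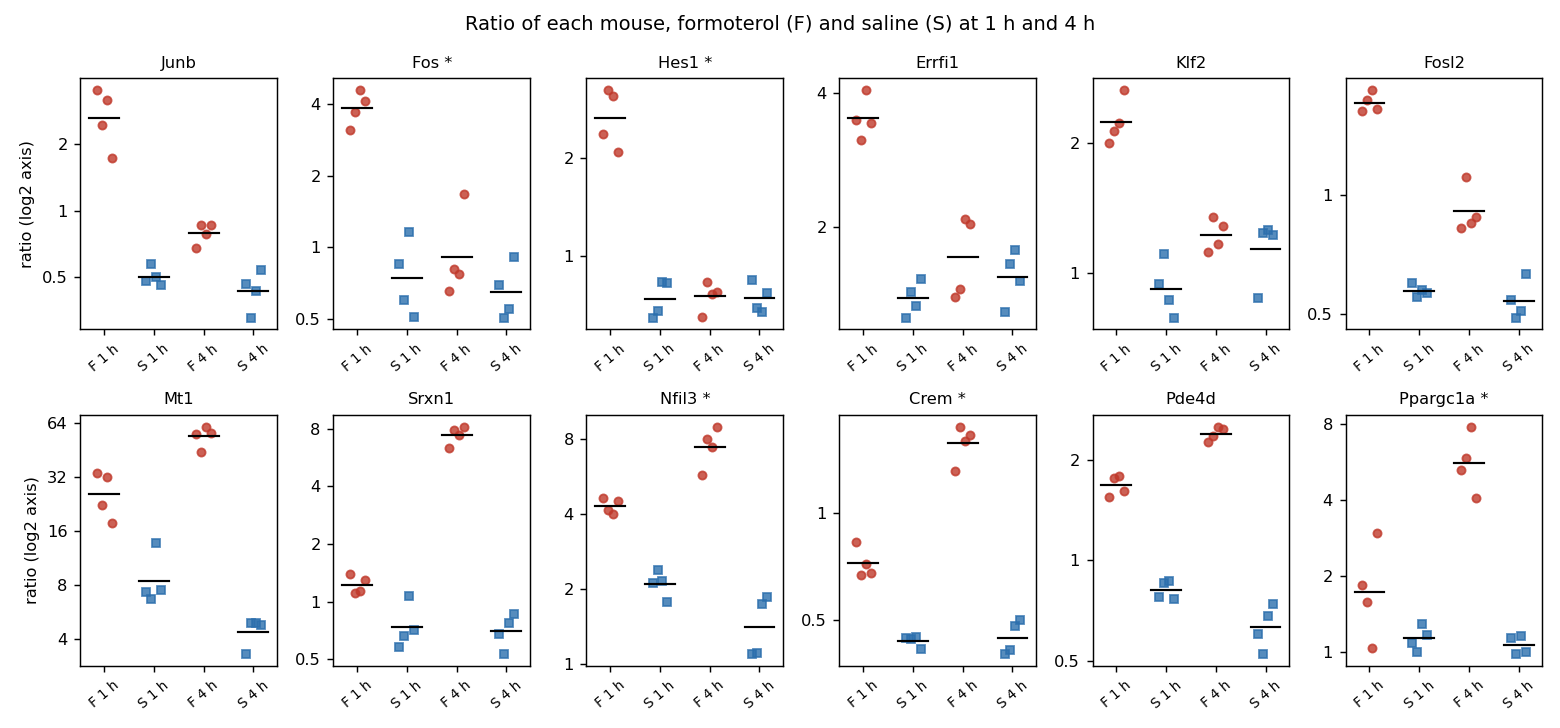
Deposited ratio of each mouse (log2 axes) for 6 genes with a larger response at 1 h (top) and 6 with a smaller one (bottom), with red circles for formoterol (F), blue squares for saline (S), a black line for the geometric mean of 4 mice and an asterisk for table probes. In the top row the formoterol mice of 1 h stand above all others, and in the bottom row those of 4 h do.

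A few of the largest rises belong to transcripts with little annotation here. The RIKEN cDNA 1200016E24Rik, a table probe, read 11.6, 8.83, 8.51 and 5.96 in formoterol mice and 1.69, 1.67, 1.62 and 1.97 in saline mice (log2 2.29, SE 0.20, adjusted p = 1.79e-06). It was high on all 4 formoterol arrays and bright enough to be detected on all 8. 3300001A09Rik, also a table probe, read 2.51, 2.52, 1.19 and 3.31 in formoterol mice and 0.517, 0.505, 0.515 and 0.39 in saline mice, at least 3.55-fold (log2 2.22, SE 0.29, adjusted p = 0.000111). 9530083O12Rik (log2 1.34, adjusted p = 2.33e-05) and a cDNA described as SEC24A-like (log2 1.05, adjusted p = 1.90e-05) complete the 24. Of the 48 probes past the fold threshold, 34 have a name, 17 of them as table probes only.

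Outside the rule for named genes, the following were chosen after their values were seen. Maf, a large Maf factor that binds AP-1 like elements, read 3.83, 4.52, 3.85 and 4.46 in formoterol mice and 1.95, 1.93, 2.28 and 2.51 in saline mice (log2 0.95, SE 0.11, adjusted p = 1.90e-05). Impact, which restrains the amino acid sensing kinase Gcn2, read 1.44, 1.4, 1.67 and 1.03 in formoterol mice and 0.606, 0.589, 0.92 and 0.601 in saline mice, highest in saline replicate 3 within its group (log2 1.03, SE 0.16, adjusted p = 0.000598). Both probes kept the groups apart. Nudt18, a hydrolase of oxidized nucleotides, read 3.45, 2.72, 3.08 and 2.33 in formoterol mice and 1.47, 1.49, 1.49 and 1.94 in saline mice (log2 0.85, SE 0.12, adjusted p = 0.000361). Coq10b, a mitochondrial protein that binds coenzyme Q, read 2.37, 2.01, 2.57 and 1.79 in formoterol mice and 1.65, 1.5, 1.24 and 1.25 in saline mice (log2 0.63, SE 0.12, adjusted p = 0.00565). Alpl, the tissue-nonspecific alkaline phosphatase, was detected on 4 formoterol arrays and no saline array, at least 1.28-fold (log2 0.67, SE 0.10, adjusted p = 0.000664). Kcne4, a potassium channel subunit, was detected on 3 formoterol arrays and no saline array, at least 1.14-fold (log2 0.52, adjusted p = 0.00661). Zyx (zyxin), an adhesion protein that senses stretch, rose by less (log2 0.41, adjusted p = 0.0297), and its call was lost in a fit of the 8 arrays of 1 h alone and without any 1 of formoterol replicates 1 and 2 and saline replicates 1, 2 and 4. Gch1, the first enzyme of tetrahydrobiopterin synthesis, was called higher (log2 0.34, adjusted p = 0.0253) but detected on 1 formoterol array and no saline array, and its call too was lost without any 1 of formoterol replicates 1, 2 and 4 and saline replicates 2 and 4.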

How the data were processed

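Total RNA of 1 tibialis anterior per mouse was labelled and hybridised to Illumina Sentrix Mouse-6 v1 BeadChips, 1 mouse per array. BeadStudio 1.5.1.3, per the labels, gave the intensity and the detection score that the authors deposited for each of 46120 probes. The authors also deposited a ratio for each probe, made in GeneSpring GX, which equals the intensity over the median of the kept probes on that array (largest relative difference 0.0025). No background was subtracted, so changes of dim probes are understated.

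From there, 7596 probes that reached the top score of 1 on 4 or more of 16 arrays were kept. Their log2 ratios entered a linear model of 4 group means over 16 arrays (limma 3.58.1 under R 4.3.3, with eBayes, 12 residual and 5.83 prior degrees of freedom). P-values were adjusted by the Benjamini-Hochberg method over 7596 probes. The response at 1 h minus that at 4 h was a contrast of the same fit. Exact permutation tests used scipy 1.17.1, tables Python 3.11.15 with pandas 2.3.3, and plots matplotlib 3.10.9. The fit was tested on simulated data. Labels give 1 mouse per array, so p-values measure the spread between mice, and the number of arrays limits precision.

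Probe IDs named 2591 kept probes (34.1%) for 2388 genes through a gene number or accession in RefSeq, 78 more are table probes, used in no list, and 4927 have no name. A gene's probe is that of highest mean signal. Named are the 24 largest rises and 12 largest falls, up to 5 called and 3 not called members of each list, the genes followed by PCR, and the 5 largest differences from 4 h each way, of which the text gives those it discusses. Results for some genes are not reported here. Members, lists and tests were chosen with earlier results of these data known. The alternatives were normalization, background, filter, offset, slide, replicate, weights and test.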

Additional observations from a re-analysis of the deposited data

Results flagged for a closer look

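For 15 of 182 gene and group combinations 1 of the 4 mice stood far from the other 3 (Dixon's criterion, which chance meets in about 1 of 20 groups). In formoterol mice these were replicate 1 for Stat3 (1.86) and Pecam1 (1.28), both the highest, replicate 2 for Hspa8 (43.8, the lowest), replicate 3 for Sgk1 (14.1, the highest) and replicate 4 for Cebpb (5.95, the lowest). In saline mice, replicate 3 stood apart for Mt1 (13.8), Midn (2.67) and Impact (0.920), each the highest and nearest to the formoterol mice, and for Igfbp5 (5.68, the lowest). Saline replicate 4 stood apart for 3300001A09Rik (0.390), Plk3 (0.358) and Crem (0.414), each the lowest, and for Nudt18 (1.94, the highest). The others were saline replicate 2 for Klf4 (0.628) and Klf7 (0.910), both the lowest.

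The response at 1 h differed from that at 4 h for 256 probes by the contrast of both responses (limma, adjusted p under 0.05), and for 29 of the genes named in the text. A response that differs between slides cannot be told apart here from one that differs between times. The difference, in log2 at 1 h minus 4 h, was positive for 10 genes, which were Fos (1.88), Hes1 (1.82), Junb (1.52), Errfi1 (1.2), Klf2 (1.18), 1200016E24Rik (1.08), Csrnp1 (0.93), Klf4 (0.84), Fosl2 (0.83) and the SEC24A-like cDNA (0.69). It was negative for the metal and stress genes Srxn1 (-2.66), Mt1 (-2.02), Mt2 (-1.92) and Ubb (-0.41). The regulators Ppargc1a (-1.78), Nfil3 (-1.37), Foxo1 (-1.24), Crem (-1.09), Cebpb (-1.0), Stat3 (-0.81), Smad3 (-0.56) and Rora (-0.55) also had a negative difference. So did Impact (-1.2), Nudt18 (-1.13), Midn (-0.95), Pde4d (-0.88), Lpin1 (-0.80), Alpl (-0.76) and Eif4ebp1 (-0.61). For Eif4ebp1 the level was lower at 1 h, while the others of these lists that were called at 1 h had the larger rise at 4 h.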

How the results depend on the processing

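The counts were 138 higher, 70 lower, 48 past the fold threshold of log2 0.89 and 256 with a response that differed from 4 h. With normexp background correction and quantile normalization 112 were lower and 77 past the fold threshold (103 and 49 with quantile normalization alone). Without the filter on dim probes 89 were higher, 26 lower and 118 differed from 4 h, with more probes tested. An adjusted p under 0.01 left 89, 26 and 114. With slide as a block in the 8 arrays of 1 h 115 were lower, and with array weights 436 differed from 4 h. Slide 2 alone gave 368 higher, 342 lower and 114 past the fold threshold, and slide 3 alone 45, 6 and 29. The methods' Welch t-test was rerun here from its description. After adjustment, the rerun called 6 higher, 0 lower and 4 past the fold threshold on log2 ratios. On linear ratios it called 0, 0 and 0. The study prints more significant probes at 1 h for its own test, and the rerun did not reproduce them. Unadjusted, the rerun passed 881 probes on log2 and 854 on linear ratios, 49 and 50 of them past the fold threshold. Leaving out 1 array at a time gave 96 to 168 higher, 32 to 100 lower, 44 to 64 past the fold threshold and 185 to 307 that differed from 4 h. Of these, 42 were lower without formoterol replicate 1 and 32 without saline replicate 1 or without saline replicate 2. The direction of Zfp36l1, not called, reversed on slide 2 alone, where it was called (log2 -0.43). Other causes of these moves were not tested.

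Deviations of same-numbered mice correlated at 0.301, -0.060, 0.068 and 0.091, and those of mice with different numbers at -0.286 to 0.181. Same-numbered mice also shared a slide, so these values cannot settle whether replicate numbers paired the mice. With a replicate block in the 8 arrays of 1 h 123 probes were higher, 61 lower and 48 past the fold threshold, and 144 of the 208 calls were shared. The probe of largest change in place of the brightest changed 0 list counts. Dim probes limit the folds, as 11 of the 43 rises past the fold threshold were undetected in all saline mice.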
